A study of Mus musculus with 12 samples.

Results

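The genes described here encode the nuclear subunits of the mitochondrial respiratory chain and of ATP synthase. They were taken by symbol: the Nduf subunit genes for complex I, Sdha to Sdhd for complex II, Cyc1 and the Uqcr genes for complex III, the Cox subunit genes for complex IV and the Atp5 genes for complex V. Assembly factors (Ndufaf genes) and the isoform genes Ndufa4l2 and Cox4i2 were not members, and Ndufa4 was placed in complex IV. This gave 85 of the 20606 genes in the expression table, with 38 genes in complex I, 4 in complex II, 9 in complex III, 17 in complex IV and 17 in complex V. By RefSeq positions on GRCm38.p6 they lie on 19 chromosomes, with the most, 9, on chromosome 7.

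The study sequenced the polyadenylated RNA of purified mouse lung fibroblast subgroups to ask how these subgroups contribute to the growth of breast cancer metastases in the lung. M-MF are matrix fibroblasts of mice with lung metastasis, and N-MF are those of normal mice. M-MyoF and N-MyoF are the MyoF subgroup of mice with metastasis and of normal mice. Each group had 3 libraries, made from Trizol RNA by SMART-seq type cDNA amplification and a transposon method. The sources used here do not give strain, age, sex, the tumour model or how the subgroups were purified. No genotype or drug is named for any group.

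Complexes I to IV pass electrons from NADH and succinate to oxygen, and complexes I, III and IV pump protons across the inner mitochondrial membrane. ATP synthase, called complex V, uses the returning protons to make ATP. A few core subunits are encoded by mitochondrial DNA, and the nuclear subunits are translated in the cytosol and imported. Several complex IV subunits exist as a widely used form and a form used mainly in heart and skeletal muscle.

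The deposited values are FPKM, which count sequenced fragments scaled to the length of the transcript and the size of the library. Their sums over genes ran between 528176 and 618478 per library, and 11466 to 12682 genes reached 1 FPKM. No label says that the 3 libraries of a group came from separate mice, so the p-values below measure only the spread between libraries, which may be technical. In these bulk samples fewer cells of a type and less RNA per cell cannot be told apart. The libraries held more than fibroblast RNA. The summed level of 8 fibroblast markers was 16152 to 16270 FPKM in M-MF and 21943 to 22139 FPKM in N-MF, and only 3255 to 3306 FPKM in M-MyoF and 4169 to 4228 FPKM in N-MyoF. The 13 epithelial markers summed to 3325 to 3357 FPKM in M-MF, 2649 to 2701 FPKM in N-MF, 16813 to 17340 FPKM in M-MyoF and 20246 to 20754 FPKM in N-MyoF. The 9 MyoF and smooth muscle markers summed to 354 to 360.3 FPKM in M-MF, 464 to 483 FPKM in N-MF, 3556 to 3619 FPKM in M-MyoF and 4853 to 4970 FPKM in N-MyoF. Most single markers did not follow these sums. By the limma test given below, 7 of the 9 were higher and 2 lower in M-MF than in N-MF. Between M-MyoF and N-MyoF, 5 were higher and 3 lower in M-MyoF. Of all genes tested, 46.3% were higher and 31.8% lower in M-MF. In M-MyoF these shares were 49.1% and 31.6%, so the marker counts there were near the background.

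Respiratory chain genes were abundant in every group. The median member stood at 117 FPKM in M-MF, 89.7 FPKM in N-MF, 144 FPKM in M-MyoF and 95.7 FPKM in N-MyoF. The members with the highest levels were Atp5b, the catalytic beta subunit of ATP synthase, and Cox4i1, the widely used form of complex IV subunit 4. Together the 85 genes took 2.22 ± 0.00612% of all FPKM in M-MF and 1.69 ± 0.00674% in N-MF (SD, n = 3 each). In the other subgroup they took 2.40 ± 0.00810% in M-MyoF and 1.84 ± 0.00511% in N-MyoF. The metastasis libraries lay above the normal libraries of the same subgroup with no overlap. The 10 most abundant genes of a library took between 9.18 and 14.7% of its FPKM and took most in N-MF. Outside those 10 genes, the members' share was 2.45% in M-MF, 1.98% in N-MF, 2.64% in M-MyoF and 2.08% in N-MyoF.

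**Figure D1:**
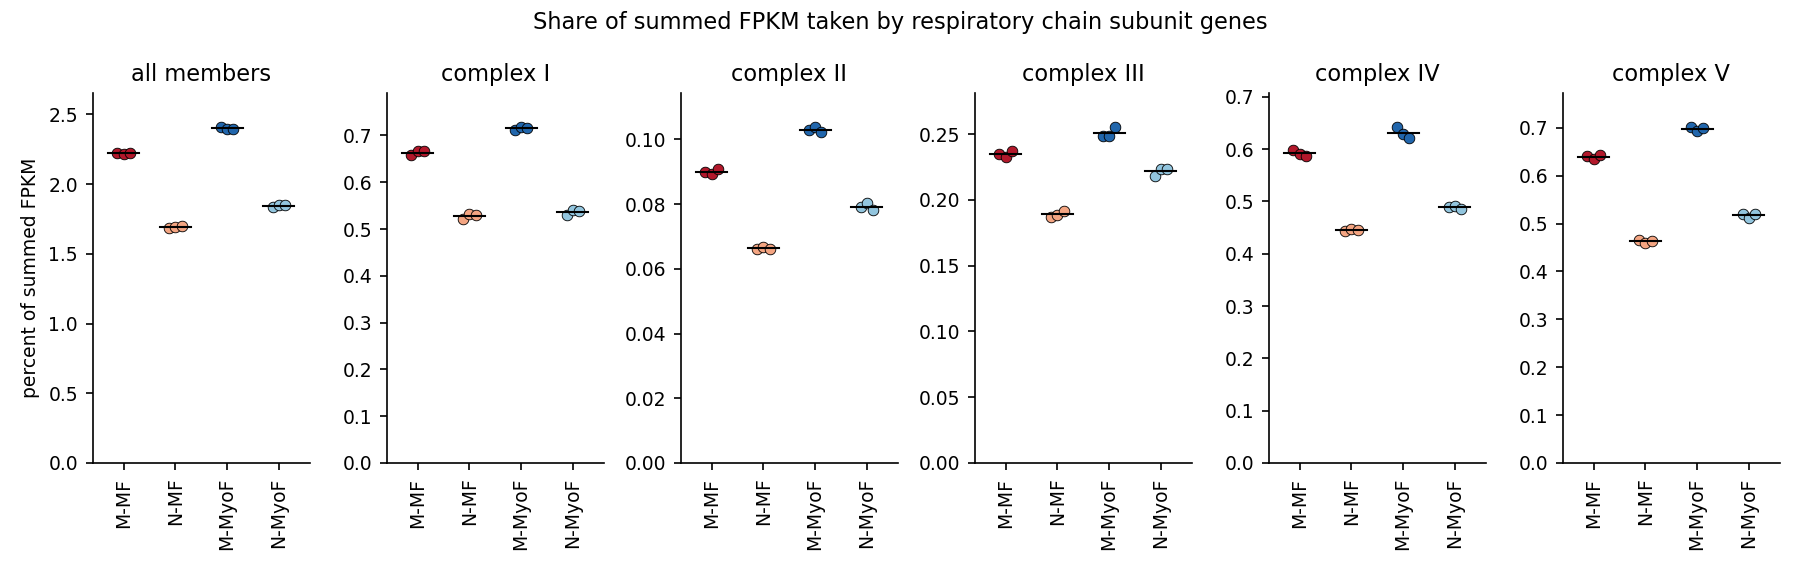
Share of all FPKM taken by the 85 nuclear respiratory chain genes, in percent, for all members and for each complex, with a point for each library and a line at the mean of each group. The M-MF and M-MyoF libraries lie at 2.22 and 2.40% on average, above 1.69% in N-MF and 1.84% in N-MyoF.

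The share of each complex lay the same way. Complex I genes held 0.663% of FPKM in M-MF against 0.528% in N-MF, and 0.716% in M-MyoF against 0.537% in N-MyoF. Complex V genes held 0.640% in M-MF against 0.463% in N-MF, and 0.698% in M-MyoF against 0.517% in N-MyoF. Complex IV genes held 0.592% in M-MF against 0.445% in N-MF, and 0.631% in M-MyoF against 0.489% in N-MyoF. Complex III was at 0.235% in M-MF, 0.189% in N-MF, 0.251% in M-MyoF and 0.222% in N-MyoF. Complex II was at 0.0900% in M-MF, 0.0663% in N-MF, 0.103% in M-MyoF and 0.0793% in N-MyoF.

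The first comparison set matrix fibroblasts of mice with metastasis against those of normal mice. Most subunit genes rose in M-MF, by modest amounts. Of the 84 members tested, 76 were higher and 2 were lower in M-MF than in N-MF (limma on log2(FPKM + 1), Benjamini-Hochberg adjusted p under 0.05 over 13300 genes). Many other genes also passed this test: 46.3% of all genes tested were higher and 31.8% were lower. Among genes averaging at least 50 FPKM, 63.4% were higher and 29.1% were lower. The median member difference was 0.48 on the log2(FPKM + 1) scale, against 0.08 over all genes and 0.29 over genes of at least 50 FPKM. At least 1.5-fold higher were 30 members (18.8% of all genes), and 3 members, Cox5a, Uqcrq and Atp5g2, were at least 2-fold higher (9.32% of all genes). The 3 M-MF values lay above all 3 N-MF values for 77 of the 85 members and below them for 3, where 47.1% of all genes tested lay above and 32.8% below.

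The second comparison set M-MyoF against N-MyoF. Of the 84 members tested, 73 were higher and 4 were lower in M-MyoF, while 49.1% of all genes tested were higher and 31.6% were lower. Among genes of at least 50 FPKM, 63.6% were higher and 29.3% lower. The median member difference was 0.55 on the log2 scale, against 0.11 over all genes and 0.30 over genes of at least 50 FPKM. At least 1.5-fold higher were 39 members (22.2% of all genes) and at least 2-fold higher were 5 (11.4% of all genes). At least 1.5-fold lower were 3 members (9.47% of all genes). The groups did not overlap for 73 members above and 4 below, beside 49.9% and 32.3% of all genes tested.

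The size of these differences depended on how the libraries were put on a common scale, while the direction of the members' median did not. With sums made equal, with median-ratio scaling and with quantile normalization, the members counted 69, 67 and 56 higher and 3, 4 and 10 lower in M-MF. Their median differences were 0.37, 0.35 and 0.20, while the median of all genes moved to -0.01, -0.03 and -0.09. Relative to the median of all genes, the members' median was 0.40 as deposited and 0.38, 0.37 and 0.29 under these scalings. In M-MyoF the same scalings gave 65, 66 and 57 members higher and 9, 9 and 14 lower, with medians of 0.36, 0.39 and 0.25 and all-gene medians of -0.06, -0.03 and -0.10. The median of every complex stayed above 0 in both comparisons under all 3 scalings. Of the members called, 10 turned direction under at least 1 scaling in M-MF (Atp5j, Cox7a2l, Ndufa1, Ndufa6, Ndufb2, Ndufs1, Ndufs5, Ndufs7, Ndufv1 and Sdha) and 8 in M-MyoF (Atp5j, Cox7a2l, Ndufa5, Ndufa6, Ndufb4, Ndufs1, Ndufv1 and Uqcrfs1).

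Other marker lists moved between the same groups. Their counts stand beside 46.3% of all genes tested higher and 31.8% lower in M-MF, and 49.1% and 31.6% in M-MyoF. The 7 matrix fibroblast markers, of which 6 were lower in M-MF, 7 were lower in M-MyoF and none was higher in either, summed to 1551 to 1560.5 FPKM in M-MF against 5399 to 5534 FPKM in N-MF, and to 444 to 446 FPKM in M-MyoF against 1085 to 1107 FPKM in N-MyoF. All 10 proliferation genes were higher in both comparisons, with sums of 236 to 245 FPKM in M-MF against 73.4 to 77.3 FPKM in N-MF, and 427 to 433 FPKM in M-MyoF against 128 to 131 FPKM in N-MyoF. The neutrophil markers were higher for 9 of 11 in M-MF and for 11 of 11 in M-MyoF, and summed to 256 to 265 FPKM in M-MF against 33.5 to 38.2 FPKM in N-MF, and to 13334 to 13681 FPKM in M-MyoF against 142 to 155 FPKM in N-MyoF. The mesothelial markers, with 9 of 9 tested higher in M-MF and 8 of 9 in M-MyoF, summed to 423 to 432 FPKM in M-MF against 54.4 to 56.8 FPKM in N-MF, and to 351 to 359.9 FPKM in M-MyoF against 217 to 226 FPKM in N-MyoF. Their part in the subunit results was not tested.

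**Figure D2:**
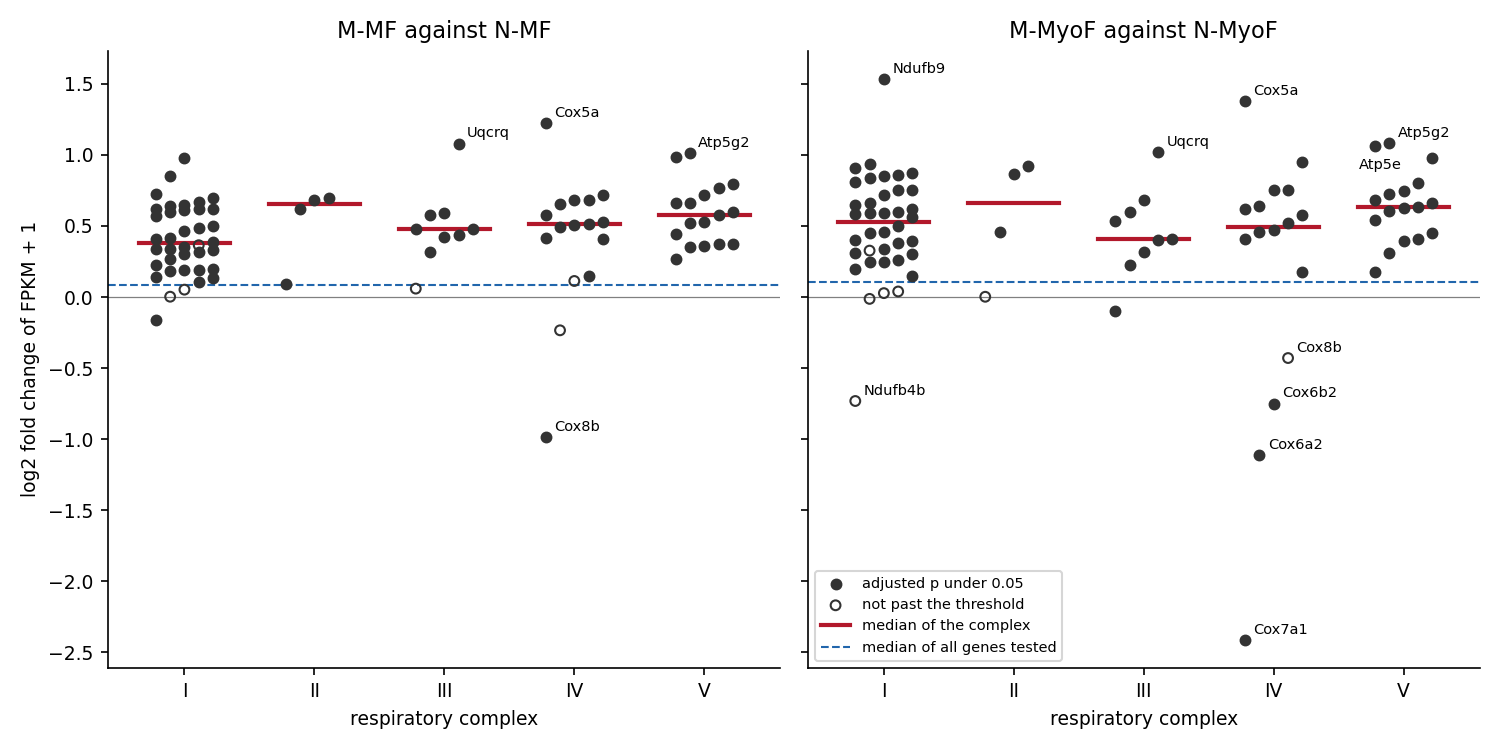
Difference of each tested member, as log2(FPKM + 1), for M-MF minus N-MF and M-MyoF minus N-MyoF, with a point for each gene (filled where it passed the test), grouped by complex, a solid line at each complex's median and a dashed line at the median of all genes tested. The complex medians lie between 0.38 and 0.65 in the first comparison and between 0.41 and 0.66 in the second.

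Complex I takes electrons from NADH and is the largest complex of the chain. As background for the counts of each complex and its parts, 46.3% of all genes tested were higher and 31.8% lower in M-MF. In M-MyoF 49.1% were higher and 31.6% lower. Among genes of at least 50 FPKM, 63.4% were higher and 29.1% lower in M-MF, and 63.6% and 29.3% in M-MyoF. Of its 38 genes, 34 were higher and 1 was lower in M-MF than in N-MF (median 0.38), and 33 were higher and none lower in M-MyoF than in N-MyoF (median 0.53). The 7 core subunits, which carry the flavin and iron-sulphur clusters, were all higher in both comparisons, with medians of 0.32 and 0.38. That direction did not hold under every scaling for Ndufs7, which turned in M-MF under all 3, for Ndufv1, which turned in M-MyoF under all 3 and in M-MF under quantile normalization, or for Ndufs1, which turned under quantile normalization in both. Of the 29 accessory subunits other than the Ndufb4 copies, 27 were higher and 1 lower in M-MF (median 0.41), and 26 were higher in M-MyoF (median 0.58).

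Ndufb9, an accessory subunit of the membrane arm, had the largest difference of complex I. It stood at 333, 339 and 329 FPKM in M-MF against 171, 172 and 165 FPKM in N-MF. In the other subgroup it stood at 548, 550.4 and 539 FPKM in M-MyoF against 182, 189 and 193 FPKM in N-MyoF. The groups were far apart in both comparisons. The difference was 0.98 ± 0.0235 (SE) on the log2 scale in M-MF (limma adjusted p = 6.62e-13) and 1.54 ± 0.0235 in M-MyoF (adjusted p = 9.05e-15). By the GENCODE M21 annotation, 19.5% of the exonic length of Ndufb9 is shared with Gm49356 on the same strand, so reads of the 2 genes cannot be fully told apart.

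Ndufa8, an accessory subunit with paired cysteine motifs, stood at 138, 139 and 136 FPKM in M-MF against 82.3, 83.1 and 82.6 FPKM in N-MF, and at 164, 161 and 156 FPKM in M-MyoF against 82.4, 86.6 and 81.9 FPKM in N-MyoF. Its differences were 0.73 ± 0.0243 and 0.93 ± 0.0243 on the log2 scale. The normal libraries of both subgroups were close together and the metastasis libraries lay above them. Ndufab1, the acyl carrier protein of the complex, stood at 109, 108 and 118 FPKM in M-MF against 72.3, 68.4 and 72.8 FPKM in N-MF, and at 156, 156 and 162 FPKM in M-MyoF against 83.5, 85.1 and 82.7 FPKM in N-MyoF. Ndufa12, another accessory subunit, differed by 0.85 ± 0.0403 in M-MF and 0.84 ± 0.0403 in M-MyoF.

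Ndufa6, an accessory subunit of the LYR protein family, stood at 120, 124 and 126 FPKM in M-MF against 110, 111 and 115 FPKM in N-MF, and at 130, 138 and 135 FPKM in M-MyoF against 118, 116 and 117 FPKM in N-MyoF. Its log2 differences of 0.14 ± 0.0269 and 0.19 ± 0.0269 both passed the test, and both turned after quantile normalization. Ndufb2, a small membrane arm subunit, stood at 32.6, 33.4 and 30.6 FPKM in M-MF against 29.0, 28.3 and 27.7 FPKM in N-MF (0.18 ± 0.0410, turned after quantile normalization). Its M-MyoF and N-MyoF values overlapped and did not pass the test (0.03 ± 0.0410, adjusted p = 0.543).

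Ndufb10, a membrane arm subunit, was the exception in complex I. It stood at 97.3, 105 and 100.1 FPKM in M-MF against 112, 109 and 117 FPKM in N-MF, with all M-MF values below all N-MF values. The difference was -0.16 ± 0.0316 on the log2 scale (limma adjusted p = 0.000468). In the MyoF subgroup it stood at 114, 119 and 115 FPKM in M-MyoF against 112, 113 and 113 FPKM in N-MyoF, and did not pass the test (0.04 ± 0.0316, adjusted p = 0.264). Ndufb11, another membrane arm subunit, was higher in M-MF (0.34 ± 0.0320) and had a difference of -0.01 ± 0.0320 in M-MyoF (adjusted p = 0.727). Ndufb4b and Ndufb4c, nearly identical copies of Ndufb4, passed neither test. Ndufb4b ran between 0 and 7.86 FPKM over the libraries with no order by group, and the treatment of reads that fit several copies is unknown.

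Complex II, succinate dehydrogenase, links the citric acid cycle to the chain and is built from nuclear genes alone. Its 4 genes did not move as a unit. Sdha, the flavoprotein that oxidises succinate, stood at 93.5, 97.1 and 94.2 FPKM in M-MF against 89.4, 90.3 and 87.7 FPKM in N-MF. The difference passed the test at 0.09 ± 0.0242 on the log2 scale (limma adjusted p = 0.0044), but turned to -0.02, -0.05 and -0.16 with equal sums, with median-ratio scaling and after quantile normalization. In the other subgroup Sdha stood at 115, 119 and 114 FPKM in M-MyoF against 118, 118 and 113 FPKM in N-MyoF, with overlapping groups and a difference of 0.00 ± 0.0242 (adjusted p = 0.937).

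Its partner subunits rose. Sdhb, the iron-sulphur subunit, stood at 165, 176 and 176 FPKM in M-MF against 103, 111 and 104 FPKM in N-MF, and at 223, 231 and 223 FPKM in M-MyoF against 119, 129.9 and 121 FPKM in N-MyoF. Its log2 differences were 0.70 ± 0.0379 and 0.87 ± 0.0379. Sdhd, a membrane anchor that helps bind ubiquinone, stood at 103, 96.8 and 103 FPKM in M-MF against 67.5, 63.3 and 65.6 FPKM in N-MF, and at 122, 122 and 124 FPKM in M-MyoF against 65.5, 63.8 and 63.5 FPKM in N-MyoF. Its log2 differences were 0.62 ± 0.0297 and 0.92 ± 0.0297, and neither pair of groups overlapped. Sdhc, the other anchor, stood at 154, 143 and 146 FPKM in M-MF against 91.7, 91.0 and 92.1 FPKM in N-MF, and at 177, 169 and 167 FPKM in M-MyoF against 127, 123.4 and 122 FPKM in N-MyoF. It differed by 0.68 ± 0.0282 in M-MF and 0.46 ± 0.0282 in M-MyoF, so the pair of anchors had their larger difference in opposite subgroups.

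**Figure D3:**
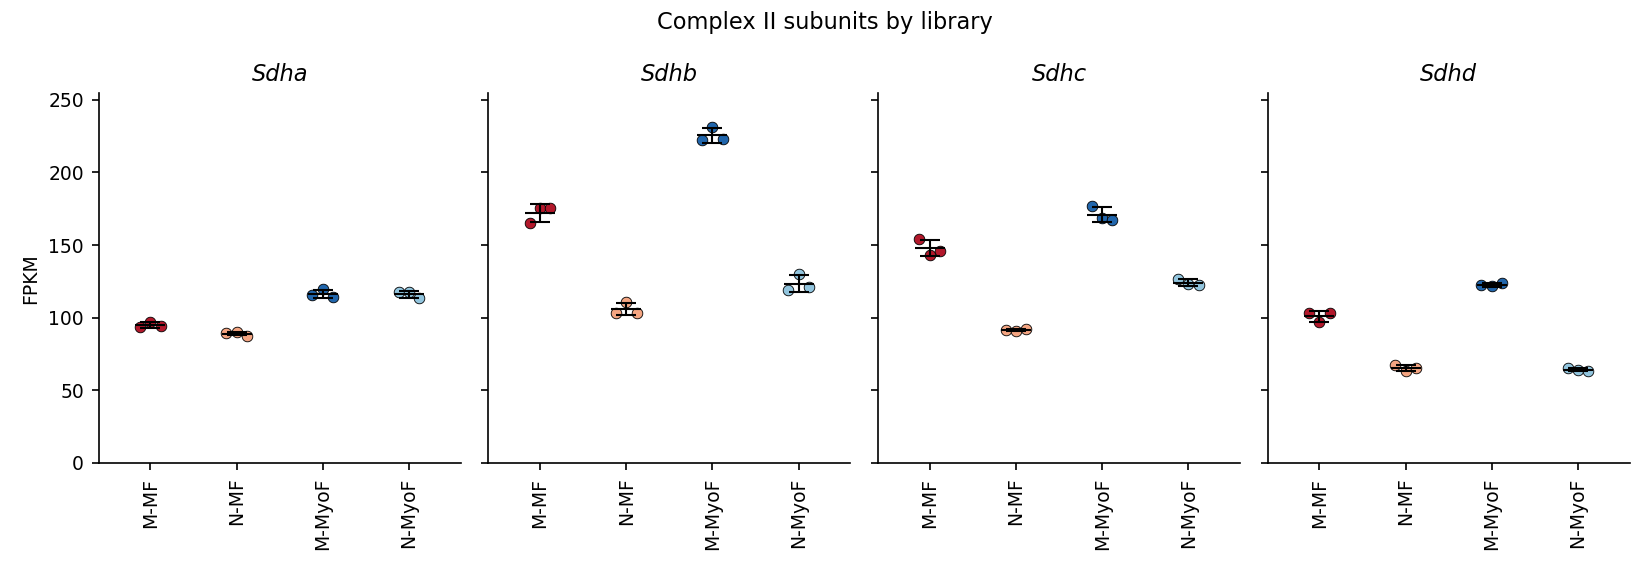
FPKM of the 4 complex II genes, with a point for each library and the mean and SD of each group. Sdhb, Sdhc and Sdhd lie higher in the metastasis libraries of both subgroups, while Sdha is 94.9 FPKM in M-MF and 89.1 FPKM in N-MF on average and its M-MyoF and N-MyoF points overlap.

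Complex III passes electrons from ubiquinol to cytochrome c. Of its 9 genes, 8 were higher and none lower in M-MF (median 0.48), and 8 were higher and 1 lower in M-MyoF (median 0.41). Uqcrq, a small subunit beside cytochrome b, stood at 36.7, 40.6 and 39.9 FPKM in M-MF against 17.4, 18.4 and 18.0 FPKM in N-MF, and at 41.3, 42.4 and 44.0 FPKM in M-MyoF against 19.8, 21.1 and 20.5 FPKM in N-MyoF. Its log2 differences of 1.08 ± 0.0401 and 1.02 ± 0.0401 were the largest of the complex. Uqcr11, the smallest subunit of the complex, stood at 243, 218 and 229 FPKM in M-MF against 159, 146 and 152 FPKM in N-MF, and at 267, 260 and 267 FPKM in M-MyoF against 218, 205 and 212 FPKM in N-MyoF. Its log2 differences were 0.59 ± 0.0392 and 0.32 ± 0.0392. Uqcrc1 and Uqcrc2, the core proteins, lay at different levels but rose together. Uqcrc2 stood at 72.7, 68.9 and 67.3 FPKM in M-MF against 51.1, 52.0 and 51.7 FPKM in N-MF, and differed by 0.42 ± 0.0284 there and by 0.40 ± 0.0284 in M-MyoF. Uqcrc1 differed by 0.58 ± 0.0178 in M-MF and 0.68 ± 0.0178 in M-MyoF.

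Cyc1, the catalytic subunit cytochrome c1, differed by 0.32 ± 0.0247 in M-MF and 0.54 ± 0.0247 in M-MyoF. Uqcrfs1, the Rieske iron-sulphur protein, differed by 0.43 ± 0.0293 in M-MF and by 0.23 ± 0.0293 in M-MyoF, and the M-MyoF difference turned to -0.09 under quantile normalization. Uqcrh, the hinge protein that touches cytochrome c1, stood at 239, 240.4 and 237 FPKM in M-MF against 226, 236 and 226 FPKM in N-MF, and did not pass the test (0.06 ± 0.0261, adjusted p = 0.053). It was lower in M-MyoF, at 248, 244 and 249.9 FPKM against 256, 275 and 262 FPKM in N-MyoF, with no overlap (-0.09 ± 0.0261, adjusted p = 0.00479).

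Complex IV, cytochrome c oxidase, reduces oxygen to water. Of its 16 genes tested, 13 were higher and 1 was lower in M-MF (median 0.51), and 12 were higher and 3 were lower in M-MyoF (median 0.49). Cox7b2, a testis form, was listed at 0 in 11 libraries and at 0.13 FPKM in the remaining N-MF library, and was not tested. The 12 widely used subunits were all higher in both comparisons, with medians of 0.54 and 0.60, but Cox7a2l, which helps join complexes into supercomplexes, turned under quantile normalization in both and under equal sums in M-MyoF.

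Cox5a, a subunit of the matrix face, had the largest difference of all members in M-MF. It stood at 165, 161 and 162 FPKM in M-MF against 71.0, 67.1 and 69.5 FPKM in N-MF, and at 220.2, 212 and 212 FPKM in M-MyoF against 81.8, 83.9 and 80.7 FPKM in N-MyoF. The groups were far apart, with log2 differences of 1.22 ± 0.0251 (limma adjusted p = 1.39e-13) and 1.38 ± 0.0251 (adjusted p = 4.39e-14). A long noncoding RNA gene on the opposite strand, Gm26631, covers 12.8% of its exonic length, and whether the counting used strand is unknown. The abundant Cox4i1 stood at 542, 532 and 532 FPKM in M-MF against 384, 374 and 384 FPKM in N-MF, and at 667, 649.9 and 625 FPKM in M-MyoF against 471, 463 and 467 FPKM in N-MyoF. Its differences of 0.49 ± 0.0218 and 0.47 ± 0.0218 were close to the median of the complex.

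Cox7b, a small transmembrane subunit, stood at 79.2, 78.2 and 76.1 FPKM in M-MF against 44.5, 47.3 and 49.3 FPKM in N-MF, and at 79.9, 82.9 and 79.2 FPKM in M-MyoF against 39.5, 43.2 and 40.9 FPKM in N-MyoF. Its log2 differences were 0.71 ± 0.0390 and 0.95 ± 0.0390. Cox6a1, Cox6b1 and Cox8a, the widely used partners of the tissue forms described next, were abundant. Cox6a1 stood at 458, 449 and 433 FPKM in M-MF against 327, 344 and 334 FPKM in N-MF, and differed by 0.41 ± 0.0298 there and by 0.46 ± 0.0298 in M-MyoF. Cox6b1 stood at 505, 516 and 494 FPKM in M-MF against 354, 365 and 343 FPKM in N-MF, and differed by 0.51 ± 0.0354 there and by 0.64 ± 0.0354 in M-MyoF. For both genes the metastasis and normal libraries of a subgroup did not overlap. Cox8a differed by 0.41 ± 0.0219 in M-MF and by 0.58 ± 0.0219 in M-MyoF.

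Of the 3 muscle forms of complex IV subunits, 1 was higher, 1 was lower and 1 was not called in M-MF, and 2 were lower in M-MyoF. Cox7a1, the heart and skeletal muscle form of subunit 7a, stood at 1.08, 1.05 and 1.31 FPKM in M-MyoF against 13.5, 7.08 and 11.6 FPKM in N-MyoF. Its difference was -2.41 ± 0.222 on the log2(FPKM + 1) scale (limma adjusted p = 4.01e-07), the largest fall of any member. In matrix fibroblasts Cox7a1 was low throughout, at 1.83, 0.84 and 0.54 FPKM in M-MF against 1.0, 0.65 and 0.92 FPKM in N-MF, with overlapping groups (0.11 ± 0.222, adjusted p = 0.652).

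Cox6a2, the muscle form of subunit 6a, moved in opposite directions in the subgroups. It stood at 3.53, 2.90 and 2.65 FPKM in M-MF against 1.99, 1.8 and 1.55 FPKM in N-MF (0.53 ± 0.109, adjusted p = 0.000658). In the MyoF subgroup it stood at 5.61, 7.17 and 4.93 FPKM in M-MyoF against 14.3, 14.1 and 12.96 FPKM in N-MyoF (-1.11 ± 0.109, adjusted p = 7.98e-07). Neither pair of groups overlapped. Itgad shares 10.3% of the exonic length of Cox6a2 and averaged 0.0033 FPKM.

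Cox8b, the muscle form of subunit 8, was lower in M-MF, at 0.62, 0.28 and 0.27 FPKM against 1.36, 2.00 and 1.87 FPKM in N-MF (-0.98 ± 0.195, adjusted p = 0.000504). In the MyoF subgroup it stood at 2.94, 3.23 and 3.01 FPKM in M-MyoF against 5.97, 2.66 and 5.39 FPKM in N-MyoF, with overlap and no call (-0.43 ± 0.195, adjusted p = 0.0596). Without the N-MyoF library numbered 2 the difference was -0.72 and passed the test, as it did under the 3 scalings. Cox6b2, a form known from testis, stood at 6.07, 3.89 and 5.74 FPKM in M-MyoF against 9.04, 9.38 and 9.64 FPKM in N-MyoF (-0.75 ± 0.112, adjusted p = 4.28e-05). It stood at 13.9, 12.4 and 14.2 FPKM in M-MF against 16.6, 17.0 and 14.6 FPKM in N-MF and did not pass the test there (-0.23 ± 0.112, adjusted p = 0.0742).

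These forms were a small part of their subunits. Cox7a1 made up 0.933% of the Cox7a1 and Cox7a2 total in M-MF, 1.07% in N-MF, 0.758% in M-MyoF and 9.23% in N-MyoF. Cox6a2 made up 0.672% of the Cox6a1 and Cox6a2 total in M-MF, 0.530% in N-MF, 1.18% in M-MyoF and 3.69% in N-MyoF. N-MyoF was thus the group with the highest share of both muscle forms. Cox4i2, which was not a member, is the lung form of subunit 4 and made up 1.24% of the Cox4i1 and Cox4i2 total in M-MF, 2.39% in N-MF, 29.5% in M-MyoF and 40.7% in N-MyoF. Ndufa4l2, also not a member and known to rise in low oxygen, made up 16.2% of the Ndufa4 and Ndufa4l2 total in M-MF, 18.1% in N-MF, 28.1% in M-MyoF and 33.2% in N-MyoF.

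Markers of muscle cells also differed between the groups, not always in the direction of the muscle forms. The 12 heart muscle markers, none of which was at 0 throughout a group, summed to 12 to 14.4 FPKM in M-MF against 51.1 to 53.0 FPKM in N-MF, and to 172 to 176 FPKM in M-MyoF against 1196 to 1243 FPKM in N-MyoF. Of the 11 tested, 9 were lower in M-MF and 11 were lower in M-MyoF. Beside all marker counts here, 46.3% of all genes tested were higher and 31.8% lower in M-MF, and 49.1% and 31.6% in M-MyoF. Myl7, the atrial myosin light chain, averaged 1.06 FPKM in M-MF, 10.9 FPKM in N-MF, 29.9 FPKM in M-MyoF and 289 FPKM in N-MyoF. The 6 skeletal muscle markers summed to 3.09 to 3.64 FPKM in M-MF against 6.95 to 7.09 FPKM in N-MF, and to 112 to 115 FPKM in M-MyoF against 64.7 to 67.4 FPKM in N-MyoF. Of the 4 skeletal markers tested, 1 was higher and 3 were lower in M-MF, and 3 were higher and 1 was lower in M-MyoF. Brown adipocytes also use Cox7a1 and Cox8b. The 7 adipocyte markers summed to 6.99 to 7.95 FPKM in M-MF against 0.52 to 0.80 FPKM in N-MF, and to 42.6 to 43.9 FPKM in M-MyoF against 4.57 to 5.12 FPKM in N-MyoF. Only 3 of the 7 were tested, and 3 were higher in M-MF and 2 in M-MyoF, with none lower in either. In M-MF the log2 differences were 2.26 for Retn, 1.59 for Adipoq and 0.27 for Cidea. Ucp1, which defines brown fat, averaged 0.277 FPKM in M-MF, 0.01 FPKM in N-MF, 0.513 FPKM in M-MyoF and 0.01 FPKM in N-MyoF. Lep was listed at 0 in M-MF, N-MF and M-MyoF. The part of such cells in the levels of the muscle forms was not tested.

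**Figure D4:**
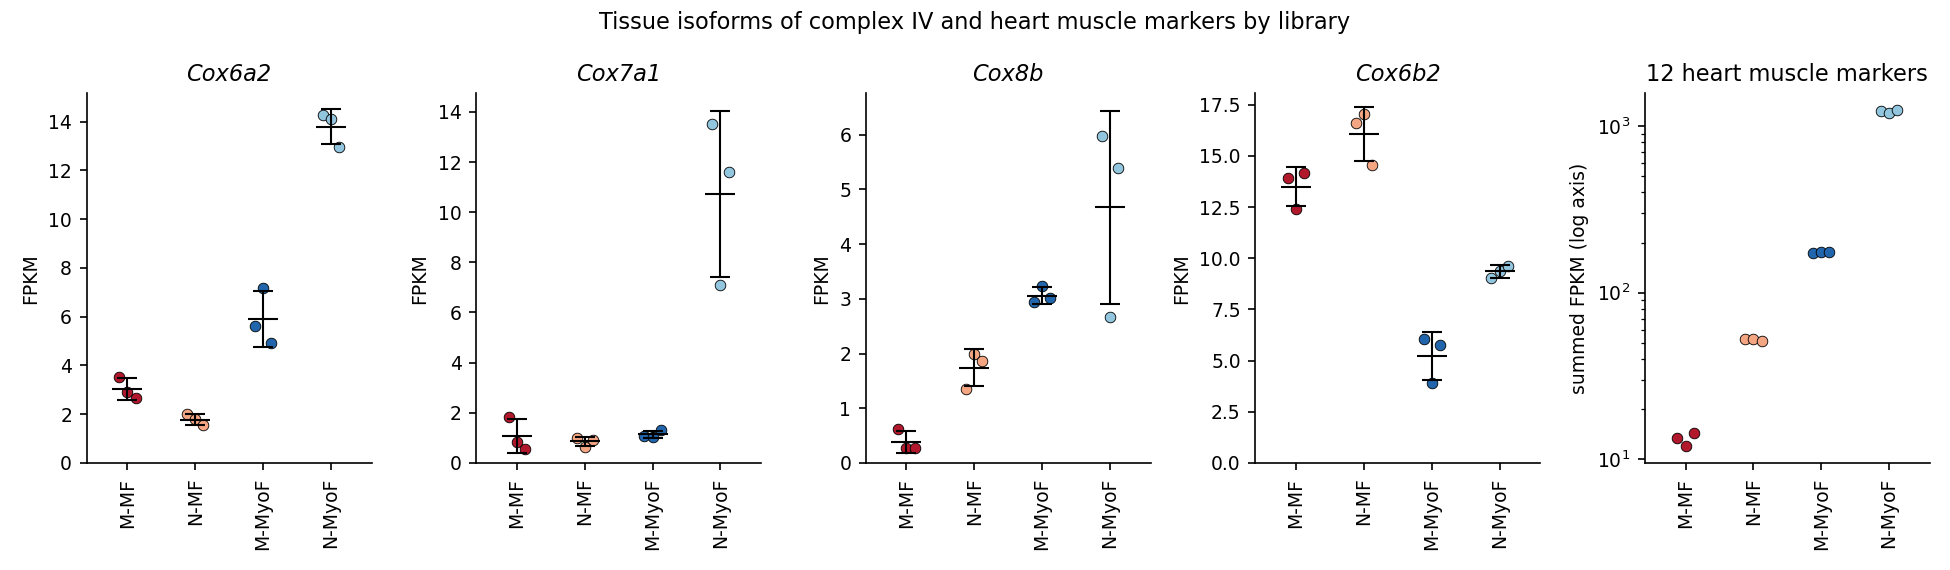
FPKM of Cox6a2, Cox7a1, Cox8b and Cox6b2 in each library, with the mean and SD of each group, and the summed FPKM of the 12 heart muscle markers on a log axis. Cox7a1 averages 1.15 FPKM in M-MyoF and 10.7 FPKM in N-MyoF, and Cox6a2 averages 5.90 FPKM in M-MyoF and 13.8 FPKM in N-MyoF.

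ATP synthase was the complex with every gene called in both comparisons. All 17 of its genes were higher in M-MF (median 0.58) and all 17 were higher in M-MyoF (median 0.63), although Atp5j, a subunit of the peripheral stalk, turned under quantile normalization in both comparisons and under equal sums in M-MyoF. Among its parts the c ring, which turns within the membrane, had the largest median difference, 0.98 in both comparisons. Its 3 genes, Atp5g1, Atp5g2 and Atp5g3, encode the same mature protein, and their sum was 516, 503 and 506 FPKM in M-MF against 276, 273 and 268 FPKM in N-MF. In the other subgroup the sum was 592, 593 and 584 FPKM in M-MyoF against 321, 304 and 304 FPKM in N-MyoF. The sums did not overlap in either pair.

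Atp5g2 stood at 199.8, 201 and 204 FPKM in M-MF against 97.9, 100.2 and 100.3 FPKM in N-MF, with a log2 difference of 1.01 ± 0.0175, and differed by 1.08 ± 0.0175 in M-MyoF. Atp5g1 differed by 0.98 ± 0.0435 in both. Atp5g3 differed by less, at 0.58 ± 0.0297 in M-MF and 0.62 ± 0.0297 in M-MyoF. In the F1 head, where ATP is made, all 5 genes of the head and central stalk were higher in both comparisons, with medians of 0.60 and 0.66. Atp5b stood at 608, 598 and 597 FPKM in M-MF against 389, 382 and 368 FPKM in N-MF, and at 872, 836 and 829 FPKM in M-MyoF against 546, 539.7 and 521 FPKM in N-MyoF, a difference of 0.66 ± 0.0255 in both. The 4 peripheral stalk genes had medians of 0.36 and 0.54, and the 5 small membrane subunits 0.53 and 0.61. Atp5k, the e subunit and the ATP synthase gene with the lowest level, stood at 54.0, 56.3 and 47.7 FPKM in M-MF against 33.9, 32.4 and 32.3 FPKM in N-MF (0.66 ± 0.12). Its MyoF libraries overlapped, at 53.1, 47.9 and 43.7 FPKM in M-MyoF against 29.9, 34.0 and 45.5 FPKM in N-MyoF (0.41 ± 0.12, adjusted p = 0.00722).

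Atp5pb, the b subunit of the peripheral stalk, stood at 122, 112 and 118 FPKM in M-MF against 91.4, 92.3 and 91.7 FPKM in N-MF, and at 147, 149.98 and 149.7 FPKM in M-MyoF against 99.7, 96.2 and 91.4 FPKM in N-MyoF. Its log2 differences were 0.35 ± 0.0327 and 0.63 ± 0.0327. Atp5e, the epsilon subunit of the central stalk, stood at 180.1, 208 and 183 FPKM in M-MF against 105, 111 and 119 FPKM in N-MF, and at 188, 190.4 and 193 FPKM in M-MyoF against 86.5, 87.1 and 98.6 FPKM in N-MyoF. It differed by 0.76 ± 0.0619 in M-MF and by 1.06 ± 0.0619 in M-MyoF.

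M-MF with N-MF and M-MyoF with N-MyoF share no library, and the difference of their effects was tested. The test did not use the pairing of library numbers described below. Counts from a fit with that pairing as a block are given with the other alternatives. Higher in both comparisons were 72 of the 84 members, beside 36.7% of all genes tested. None was lower in both, beside 21.2% of all genes, and Cox6a2 alone was higher in M-MF and lower in M-MyoF, beside 4.36% of all genes. Across the 84 members the differences had a Pearson correlation of 0.63 and a Spearman correlation of 0.79, given as a description because genes are not replicates. The level of a member said little about its difference, with Spearman correlations across the 84 members of 0.24 in M-MF and 0.21 in M-MyoF. By the test of the difference, the log2 change in matrix fibroblasts lay above that in the MyoF subgroup for 12 members and below it for 29, against 26.4% and 38% of all genes tested. These 41 of 84 members stand beside 64.4% of all genes called in either direction. With equal sums these counts turned to 23 and 15, and the members' median difference of effects went to 0.03, against -0.05 as deposited. Cox7a1 had the largest difference of effects, 2.52 ± 0.313 on the log2 scale (limma adjusted p = 1.68e-05), and Cox6a2 had 1.64 ± 0.155 (adjusted p = 1.37e-06). On the other side were Ndufb9 at -0.56 ± 0.0332 (adjusted p = 1.7e-08), Ndufa1 at -0.46 ± 0.0630 (adjusted p = 4.01e-05) and Ndufs8, a core iron-sulphur subunit, at -0.40 ± 0.0620 (adjusted p = 0.000109).

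Ndufa1, a small membrane subunit needed for complex I assembly, stood at 113, 112 and 117 FPKM in M-MF against 102, 105 and 105 FPKM in N-MF, and at 110.1, 114 and 115 FPKM in M-MyoF against 75.8, 68.5 and 80.4 FPKM in N-MyoF. Its metastasis libraries lay at like levels in both subgroups, while its N-MF libraries lay above its N-MyoF libraries. For Ndufs8 it was the reverse, with 93.1, 94.5 and 93.2 FPKM in M-MF against 75.7, 75.3 and 74.1 FPKM in N-MF, and 128, 119.6 and 121 FPKM in M-MyoF against 69.0, 80.6 and 74.2 FPKM in N-MyoF, where the N-MF and N-MyoF values overlapped. The difference of Ndufa1 in M-MF, 0.13 ± 0.0446, turned to -0.004 under median-ratio scaling and to -0.14 under quantile normalization. Ndufa4, the complex IV subunit once counted with complex I, had the larger effect in matrix fibroblasts (0.68 ± 0.0202 against 0.41 ± 0.0202 in the MyoF subgroup).

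**Figure D5:**
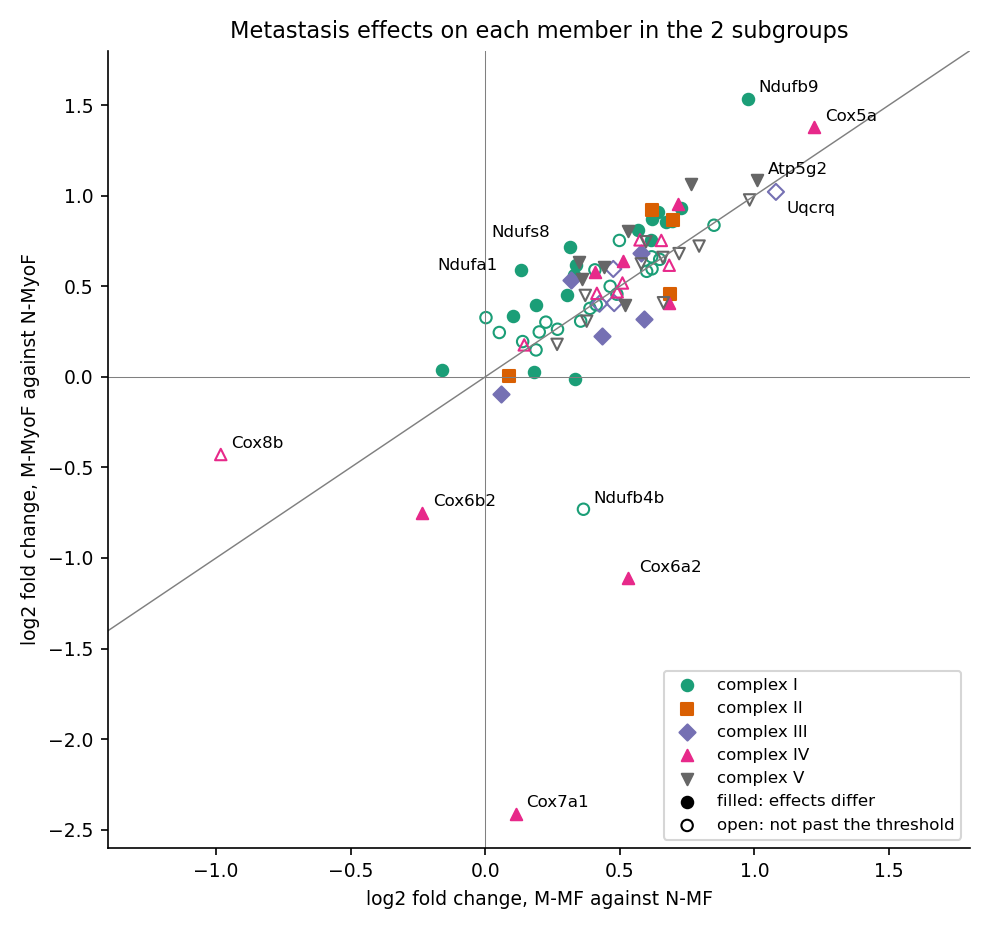
Difference of each tested member in M-MF minus N-MF (horizontal) and in M-MyoF minus N-MyoF (vertical), both as log2(FPKM + 1). Filled points are members whose effects differ by the test, among them Ndufb9 (0.98 and 1.54), and Cox7a1 (0.11 and -2.41) lies far from the rest.

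The subgroups themselves were compared within each condition, with libraries that also served the comparisons above. In normal mice 16 members were higher and 51 lower in N-MF than in N-MyoF, beside 24.5% and 57.6% of all genes tested. In mice with metastasis 7 were higher and 56 lower in M-MF than in M-MyoF, beside 19.1% and 66% of all genes tested. The counts of lower members were near the background, and those of higher members were below it. With median-ratio scaling the counts turned to 53 higher and 13 lower in N-MF and 51 higher and 11 lower in M-MF. Cox7a1 and Cox6a2 were lower in N-MF than in N-MyoF, with log2 differences of -2.62 ± 0.222 and -2.41 ± 0.109. In mice with metastasis Cox6a2 differed by -0.77 ± 0.109, while Cox7a1 did not pass the test (-0.10 ± 0.222, adjusted p = 0.684). Cox6b2 was higher in N-MF than in N-MyoF (0.72 ± 0.112) and higher in M-MF than in M-MyoF (1.23 ± 0.112).

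Other genes of the mitochondrial energy system were read from lists that were drawn up beside the members. The background for the counts of all these lists is the share of all genes tested. It was 46.3% higher and 31.8% lower in M-MF, and 49.1% higher and 31.6% lower in M-MyoF. Of 49 assembly factors tested, 38 were higher and 3 lower in M-MF (median 0.28), and 41 were higher and 2 lower in M-MyoF (median 0.42). Uqcc2, an assembly factor of complex III, stood at 121, 120.5 and 115 FPKM in M-MyoF against 33.5, 31.0 and 26.5 FPKM in N-MyoF, a log2 difference of 1.94. Surf1, which is needed to build complex IV, went the other way, at 35.8, 34.2 and 36.0 FPKM in M-MF against 50.6, 49.1 and 52.6 FPKM in N-MF, a log2 difference of -0.51. Of the 23 import and cristae genes, 22 were higher and 1 lower in M-MF (median 0.49) and all 23 were higher in M-MyoF (median 0.75). Hspd1, the matrix chaperonin, stood at 109, 111 and 112 FPKM in M-MF against 53.6, 54.9 and 55.2 FPKM in N-MF (1.01), and at 169, 167 and 168 FPKM in M-MyoF against 60.6, 60.3 and 62.0 FPKM in N-MyoF (1.45).

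The carriers that feed and drain the chain also rose for the most part. Of 7 carrier genes, 7 were higher in M-MF (median 0.49), and 6 were higher and 1 lower in M-MyoF (median 0.44). The one that fell was Slc25a4, the muscle and heart form of the ADP/ATP carrier, with a difference of -0.09, against 0.41 for Slc25a5, the widely used form. Of 17 citric acid cycle genes, 15 were higher and 1 lower in M-MF (median 0.27), and 15 were higher and 2 lower in M-MyoF (median 0.34), but under quantile normalization the M-MF counts were 7 and 4 with a median of 0.03. Mdh2, mitochondrial malate dehydrogenase, differed by 0.80 in M-MF and 0.78 in M-MyoF, while Ogdh, of the oxoglutarate dehydrogenase complex, was lower in both (-0.12 and -0.13).

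The regulators of mitochondrial biogenesis were divided. Beside them, 46.3% of all genes tested were higher and 31.8% lower in M-MF. In M-MyoF these shares were 49.1% and 31.6%. Of 16 tested, 5 were higher and 8 lower in M-MF (median -0.10), with 2 higher and 8 to 10 lower under the other scalings. In M-MyoF 4 were higher and 7 lower (median -0.01), with 3 higher and 9 lower under the other scalings. Ppargc1a, the PGC-1 alpha coactivator, stood at 0.25, 0.38 and 0.48 FPKM in M-MF against 1.23, 1.04 and 0.92 FPKM in N-MF, and at 1.59, 1.78 and 1.67 FPKM in M-MyoF against 2.58, 2.59 and 3.12 FPKM in N-MyoF. It was lower in both, with differences of -0.59 and -0.49 on the log2(FPKM + 1) scale. Sirt1, a deacetylase that acts on that coactivator, differed by -0.92 and -0.87. Gabpb1, a subunit of the NRF-2 factor, was higher by 0.47 and 0.49. Its partner subunit Gabpa was lower in M-MF (-0.24), as were Yy1 (-0.42) and Nrf1 (-0.13).

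Promoter sequences are shown for 6 members: Atp5g2, Uqcrc1 and Sdhd, which rose in both comparisons and hold motifs, Sdha from the same complex as Sdhd, Cox5a with the largest rise in M-MF, and Cox7a1 with the largest fall in M-MyoF. They were chosen after their values were seen. RefSeq promoter windows of GRCm38.p6, from 250 bases before to 50 after an annotated start, were found for 70 of the 85 members. Each is given 5′ to 3′ on the strand of the gene, with motif matches in capitals. The windows are chr15:102670998-102671297 (minus strand) for Atp5g2, chr9:108936398-108936697 (plus) for Uqcrc1, chr9:50603800-50604099 (minus) for Sdhd, chr13:74350191-74350490 (minus) for Sdha, chr9:57520982-57521281 (plus) for Cox5a and chr7:30183921-30184220 (plus) for Cox7a1.
Atp5g2: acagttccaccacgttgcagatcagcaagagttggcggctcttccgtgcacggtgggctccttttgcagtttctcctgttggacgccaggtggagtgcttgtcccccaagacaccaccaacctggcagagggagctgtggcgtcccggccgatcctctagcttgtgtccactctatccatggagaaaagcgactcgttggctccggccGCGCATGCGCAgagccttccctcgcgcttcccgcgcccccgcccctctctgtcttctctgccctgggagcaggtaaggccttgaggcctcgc
Uqcrc1: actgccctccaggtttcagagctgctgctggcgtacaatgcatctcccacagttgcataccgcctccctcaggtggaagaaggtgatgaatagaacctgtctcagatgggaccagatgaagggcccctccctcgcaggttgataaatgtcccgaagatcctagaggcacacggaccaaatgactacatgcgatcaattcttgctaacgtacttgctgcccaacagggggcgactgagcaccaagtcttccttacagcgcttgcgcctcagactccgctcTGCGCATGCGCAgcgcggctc
Sdhd: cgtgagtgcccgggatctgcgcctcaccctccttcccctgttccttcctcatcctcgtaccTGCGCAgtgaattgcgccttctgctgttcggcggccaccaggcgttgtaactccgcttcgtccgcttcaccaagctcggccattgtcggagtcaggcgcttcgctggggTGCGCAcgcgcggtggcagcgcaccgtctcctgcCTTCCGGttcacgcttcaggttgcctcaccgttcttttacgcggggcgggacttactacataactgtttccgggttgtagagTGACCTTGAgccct
Sdha: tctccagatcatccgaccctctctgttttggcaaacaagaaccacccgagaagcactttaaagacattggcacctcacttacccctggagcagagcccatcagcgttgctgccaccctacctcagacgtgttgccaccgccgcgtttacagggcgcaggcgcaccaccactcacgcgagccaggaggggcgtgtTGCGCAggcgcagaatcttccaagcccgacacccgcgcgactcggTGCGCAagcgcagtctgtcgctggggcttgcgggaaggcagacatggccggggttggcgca
Cox5a: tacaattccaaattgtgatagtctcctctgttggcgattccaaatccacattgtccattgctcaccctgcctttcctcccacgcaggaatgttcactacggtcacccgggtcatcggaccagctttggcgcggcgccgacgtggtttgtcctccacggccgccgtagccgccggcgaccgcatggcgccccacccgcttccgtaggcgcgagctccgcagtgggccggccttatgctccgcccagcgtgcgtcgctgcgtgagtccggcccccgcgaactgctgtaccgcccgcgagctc
Cox7a1: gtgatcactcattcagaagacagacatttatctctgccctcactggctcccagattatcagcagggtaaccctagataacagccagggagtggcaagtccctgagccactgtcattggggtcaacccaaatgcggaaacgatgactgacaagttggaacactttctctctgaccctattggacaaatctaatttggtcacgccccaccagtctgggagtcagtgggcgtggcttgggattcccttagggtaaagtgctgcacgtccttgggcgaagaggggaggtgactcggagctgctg

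The motifs were searched on both strands, and the short NRF-1 motif overlaps the NRF-1 core. The NRF-1 core GCGCATGCG was in the windows of 8 members, 11.4% of those with a window, against 3.86% of tested genes and 1.95% of all genes with a window. The short motif TGCGCA was in 25.7% of members, 15.2% of tested genes and 8.79% of all. The ETS core CCGGAAG was in 24.3% of members, 19.1% of tested genes and 9.93% of all. The YY1 core AAGATGGC was in 14.3% of members, 4.91% of tested genes and 3.19% of all. The ERR motif TNAAGGTCA was in 4.29% of members, 0.852% of tested genes and 1.43% of all. Atp5g2 and Uqcrc1 each hold a single run of letters that matches the NRF-1 core on both strands, as overlapping matches. Sdhd holds short NRF-1 motifs, an ETS core and an ERR motif, and Sdha holds short NRF-1 motifs. The windows of Cox5a and Cox7a1 hold none of the 5 motifs, and that of Cox5a lies inside the annotated span of the gene. A match is a run of letters, not a measured binding site. Member windows had a median GC content of 57.3%, against 52.7% over all windows.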

How the data were processed

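RNA of purified lung fibroblast subgroups was measured in 12 libraries, 3 for each of 4 groups, and each library's title gave its group. The authors deposited one table of FPKM values per gene, already normalised for length and library size, per the file headers. The genome build was GRCm38, per the submitters' processing notes. The sources used here give no aligner, no counter and no treatment of strand or of reads with several matches, and read depth is unknown, so no counting interval can be given. No column belonged to no sample (0 such columns).

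Values were used as log2(FPKM + 1). The 13300 genes that reached 1 FPKM in 3 or more libraries were fitted with limma 3.58.1 in R 4.3.3, with one model over the 4 groups, a mean-variance trend and Benjamini-Hochberg adjustment over all of them at 0.05. Tables and plots used Python 3.11.15, pandas 2.3.3, numpy 2.4.6 and matplotlib 3.10.9. The procedure was tested on simulated data with independent noise in each library. Those data did not hold the shared deviations of same-numbered libraries described below. The members and gene lists were chosen with earlier results of these data known. The naming rule took, per comparison and complex, the 2 largest and 2 smallest called differences whose higher group averaged 5 FPKM or more. It also took complex II, Cyc1, the tissue isoforms, the members of highest and lowest level and those against the direction of their complex. For the other lists it took the 2 smallest p in each direction. Not every gene of the rule is named in the text, and those described were picked with their values seen. Other genes named, among them Ndufs1 and Ppargc1a, were also chosen after their values were seen. Alternatives were other pseudocounts, filters and scalings, a fit of the compared groups alone, no variance trend, a replicate block, and leaving out each library.

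The libraries carry numbers 1 to 3 in each group, and the labels do not say what a number marks. Over 1830 genes of at least 50 FPKM, the deviations from the group mean correlated between 0.482 and 0.796 in the 18 same-numbered pairs and between -0.683 and 0.38 in the 36 other pairs. All 12 of 12 libraries correlated best with one of their own number, so the numbers were taken to pair the libraries.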

Additional observations from a re-analysis of the deposited data

Results flagged for a closer look

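The test of the difference of effects (the log2 change from metastasis in matrix fibroblasts minus that in the MyoF subgroup) passed for 41 of 84 members, beside 64.4% of all genes tested, and each is given here for that reason.

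In complex IV the difference was 2.52 for Cox7a1, 1.64 for Cox6a2, 0.52 for Cox6b2, 0.27 for Ndufa4, -0.13 for Cox6b1, -0.15 for Cox5a, -0.17 for Cox8a and -0.24 for Cox7b. Without the N-MyoF library numbered 1, 2 or 3 the calls for Cox7a1 and Cox6a2 remained.

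In complex I it was 0.35 for Ndufb11, 0.15 for Ndufb2, -0.14 for Ndufc2, -0.15 for Ndufb3, -0.19 for Ndufa2, -0.20 for Ndufb10, -0.21 for Ndufa8, -0.21 for Ndufs5, -0.23 for Ndufs7, -0.23 for Ndufb5, -0.24 for Ndufa10, -0.25 for Ndufc1, -0.27 for Ndufab1, -0.28 for Ndufs6, -0.40 for Ndufs8, -0.46 for Ndufa1 and -0.56 for Ndufb9.

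In complex II it was 0.23 for Sdhc, 0.088 for Sdha, -0.17 for Sdhb and -0.30 for Sdhd. In complex III it was 0.27 for Uqcr11, 0.21 for Uqcrfs1, 0.15 for Uqcrh, -0.11 for Uqcrc1 and -0.22 for Cyc1. In ATP synthase it was 0.13 for Atp5a1, -0.073 for Atp5g2, -0.16 for Atp5j2, -0.18 for Atp5mpl, -0.27 for Atp5l, -0.28 for Atp5pb and -0.30 for Atp5e. With 1 library left out in turn, 31 of the 41 calls remained in every fit. The other 10 were lost in at least 1: Atp5g2, Atp5j2, Atp5mpl, Cox6b1, Ndufa2, Ndufb2, Ndufc1, Ndufc2, Ndufs6 and Sdha. No explanation of these differences was tested.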

How the results depend on the processing

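Of 136 values of named members, 86 kept their direction and their side of the threshold under all 23 alternatives, and 50 did not under at least 1. The replicate block, which uses the pairing of the library numbers, gave 77 members higher and 2 lower in M-MF, 73 and 4 in M-MyoF, 15 and 35 in the difference of effects, 16 and 51 in N-MF against N-MyoF and 7 and 58 in M-MF against M-MyoF. It changed no call of a named member. Leaving out 1 library gave 75 to 77 higher and 2 to 3 lower in M-MF (median 0.48 to 0.49), 73 to 74 and 4 to 5 in M-MyoF (0.54 to 0.56), 10 to 13 and 24 to 30 in the difference (-0.071 to -0.052), 14 to 16 and 46 to 51 in N-MF against N-MyoF (-0.15 to -0.12), and 6 to 7 and 51 to 56 in M-MF against M-MyoF (-0.21 to -0.17).

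Scaling moved most. Members lower in M-MF were 1 with a filter of 5 FPKM, 4 with median-ratio scaling and 10 with quantile normalization. Members lower in M-MyoF were 9 with equal sums, 9 with median-ratio scaling and 14 with quantile normalization. With equal sums the difference of effects had 23 members above and 15 below. M-MF against M-MyoF had 13 members higher with equal sums, and 51 higher and 11 lower with median-ratio scaling, which also gave 53 higher and 13 lower in N-MF against N-MyoF.

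The members' median in M-MF was 0.49 and 0.47 with pseudocounts of 0.1 and 5, 0.48 with no filter, 0.49 with the filter of 5 FPKM, and 0.37, 0.35 and 0.20 with equal sums, with median-ratio scaling and after quantile normalization. In M-MyoF it was 0.56 and 0.53 with the pseudocounts, 0.54 with no filter, 0.56 with the filter, 0.36, 0.39 and 0.25 with the scalings and 0.56 without the libraries numbered 3. For the difference of effects it was 0.028 with equal sums, -0.026 with median-ratio scaling and -0.057 without the libraries numbered 3. In N-MF against N-MyoF it was -0.12 with a pseudocount of 5 and -0.10, 0.17 and -0.080 with the scalings. In M-MF against M-MyoF it was -0.20 and -0.18 with the pseudocounts, -0.18 with no filter, -0.18 with the filter, -0.089, 0.12 and -0.12 with the scalings and -0.20 without the libraries numbered 3.

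Of all called members, 10 turned direction under at least 1 scaling in M-MF, 8 in M-MyoF, 1 in the difference, 33 in N-MF against N-MyoF and 37 in M-MF against M-MyoF. The values that follow are those of members named by rule, called or not. With equal sums, Ndufs7 (-0.0060) and Sdha (-0.021) turned in M-MF, Atp5j (-0.012), Cox7a2l (-0.015), Ndufv1 (-0.042) and Sdha (-0.19) in M-MyoF, Atp5g2 (0.0075) in the difference, Cox6b1 (0.024) and Cox7a2l (0.00059) in N-MF against N-MyoF, and Atp5o (0.043), Cox7a2l (0.049) and Cox7b (0.053) in M-MF against M-MyoF. With median-ratio scaling, Ndufs7 (-0.031) and Sdha (-0.045) turned in M-MF, and Ndufv1 (-0.012) and Sdha (-0.16) in M-MyoF. It also turned Cox4i1 (0.0046), Cox6a1 (0.20), Cox6b1 (0.30), Cox7a2l (0.27), Cox8a (0.11), Ndufa4 (0.20), Sdhb (0.079), Uqcrb (0.17) and Uqcrq (0.10) in N-MF against N-MyoF. In M-MF against M-MyoF it turned Atp5g1 (0.19), Atp5o (0.26), Cox4i1 (0.051), Cox6a1 (0.17), Cox6b1 (0.19), Cox7a1 (0.065), Cox7a2l (0.27), Cox7b (0.27), Sdha (0.030), Sdhc (0.11), Sdhd (0.046), Uqcr11 (0.12) and Uqcrq (0.20).

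With quantile normalization, Atp5j (-0.041), Cox7a1 (-0.074), Cox7a2l (-0.19), Ndufs7 (-0.19) and Sdha (-0.16) turned in M-MF. So did Atp5j (-0.11), Cox7a2l (-0.14), Ndufa6 (-0.14), Ndufv1 (-0.17), Sdha (-0.34) and Uqcrfs1 (-0.085) in M-MyoF, and Cox7a1 (0.20), Cox7b (0.091) and Uqcrq (0.036) in M-MF against M-MyoF. Without the libraries numbered 3, Sdha (-0.0030) in M-MyoF and Cox7a1 (0.14) in M-MF against M-MyoF turned. With 1 library left out, values close to 0 turned: Cox7a1 ran between -0.14 and 0.30 in M-MF and between -0.35 and 0.090 in M-MF against M-MyoF, Sdha between -0.017 and 0.015 in M-MyoF, and Cox6b1 between -0.033 and 0.041 in N-MF against N-MyoF.

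Equal sums and the other scalings assume that the summed or typical level is the same in all groups, which FPKM alone cannot show. Read depth is unknown, so the error of low values such as those of Cox7a1 and Cox8b is known only from 3 libraries a group. The cause of the changes between scalings was not tested.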
